A study of Mus musculus with 9 samples.

Results

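The transcriptomes of BV+ and BV− cells sorted from differentiating mouse PSCs were compared under NRF1 overexpression (NRF1 OE). The libraries compared are the 5 whose labels name NRF1 OE, 2 of BV+ cells and 3 of BV− cells, out of 9 in the series, and every gene of the raw count tables was considered. BVSC PSCs carry Blimp1-mVenus (BV) and Stella-CFP (SC) reporters, which report on Prdm1 (Blimp1) and Dppa3 (Stella), and the sort used BV. The cells were differentiated as embryoid bodies (EBs) in medium with serum and sorted at day 5. An Nrf1 cDNA was expressed from a doxycycline (DOX)-inducible p20 vector, with 1.5 μg/mL DOX given from day 2 to day 5, so all 5 libraries share line, vector and DOX and differ in the BV sort. The Ctrl cells, with 2 BV+ and 2 BV− libraries, carried an empty vector. A cell type that limits the vector's promoter, or whether the cells were 1 clone, is not given in the sources used here. The study calls BV+ cells PGC-like cells (PGCLCs) and BV− cells somatic cells. Libraries of a group are described only as biological duplicates or replicates, so p-values measure the spread between these libraries.

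Primordial germ cells (PGCs) are the founders of sperm and eggs and are set aside from the epiblast in response to BMP and WNT signals from neighbouring tissue. Blimp1, Prdm14 and Tfap2c form the core of their transcriptional programme, which represses somatic mesoderm genes that the same signals switch on in neighbouring cells. Blimp1 is also used outside the germ line, among others in endoderm and in blood lineages, so a Blimp1 reporter alone does not name a single cell type. NRF1 is a transcription factor that binds GC-rich promoters of many genes of mitochondrial respiration and cell growth.

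The 250 bases before the annotated start are shown for the gene that the sort reporter reports on, for a transcription factor and a collagen among the genes most raised in BV+ cells, and for the germ cell regulator with the largest fall (RefSeq, GRCm38.p6, 5′ to 3′ on the strand of the gene). The letters searched on both strands were GCATGCGC, the core of the NRF1 site, TGANTCA, the AP-1 site, and TATAAA, the TATA box, and a match is in capitals.
Prdm1, chr10:44458749-44458998, minus strand: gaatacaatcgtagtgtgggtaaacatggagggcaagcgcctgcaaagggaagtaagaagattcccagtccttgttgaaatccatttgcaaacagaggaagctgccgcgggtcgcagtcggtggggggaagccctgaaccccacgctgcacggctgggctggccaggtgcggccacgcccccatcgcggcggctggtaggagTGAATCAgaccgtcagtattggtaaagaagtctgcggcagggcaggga
Foxc1, chr13:31806396-31806645, plus strand: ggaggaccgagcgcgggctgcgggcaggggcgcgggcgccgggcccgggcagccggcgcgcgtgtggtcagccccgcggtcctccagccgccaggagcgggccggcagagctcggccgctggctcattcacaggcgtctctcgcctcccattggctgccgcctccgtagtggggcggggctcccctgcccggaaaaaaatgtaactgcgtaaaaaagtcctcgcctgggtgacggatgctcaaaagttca
Col1a2, chr6:4505368-4505617, plus strand: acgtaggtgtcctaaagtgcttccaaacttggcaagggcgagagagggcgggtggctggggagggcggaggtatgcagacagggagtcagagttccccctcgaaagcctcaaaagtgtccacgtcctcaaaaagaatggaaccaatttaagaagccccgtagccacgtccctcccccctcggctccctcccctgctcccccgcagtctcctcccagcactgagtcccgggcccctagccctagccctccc
Nanos3, chr8:84176553-84176802, minus strand: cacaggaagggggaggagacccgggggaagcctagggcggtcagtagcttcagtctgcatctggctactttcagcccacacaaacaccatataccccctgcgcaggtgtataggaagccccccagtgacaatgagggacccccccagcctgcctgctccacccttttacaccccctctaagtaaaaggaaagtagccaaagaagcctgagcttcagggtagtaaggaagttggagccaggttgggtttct
The Prdm1 window held 1 AP-1 match, from 48 to 42 bases before the start, and the other windows held none of these letters. Among all 32851 promoters of the same length in the RefSeq table, 2.26% held the NRF1 core, 6.75% the AP-1 letters and 12.4% the TATA box. Only 73.2% of the genes called higher and 67.8% of those called lower could be matched to a promoter, under the 80% set as a minimum, so a comparison of motif shares between them is void and is not given. GC content was 59.2% in the Prdm1 window, 70.8% in Foxc1, 62% in Col1a2 and 56.4% in Nanos3.

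Total counts were 13702162 to 19625460 over the 9 libraries, and 22921 to 25896 genes had a count in a library. The first principal component of log2 CPM (counts scaled to the size of the library) held 39.4% of the variance and the second 33.7%. Replicate 2 of the BV− NRF1 OE libraries, the shallowest of all, stood apart from the other 2 of its group on the second component, at 69.5 against 17.1 and 30.6. The Spearman correlation across 14253 genes between a library's deviation from the mean and GC content was 0.308 and 0.00674 in BV+ NRF1 OE, 0.0445, 0.666 and 0.531 in BV− NRF1 OE, and −0.561 to −0.467 in the Ctrl libraries. Libraries of 1 group thus differed in this trend, and its part in the calls was examined only through the offsets given below.

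Nrf1 was examined first as a check of the labels. Nrf1 (ENSMUSG00000058440) had 95.7 and 99.4 CPM in BV+ cells and 119, 122 and 126 CPM in BV− cells with NRF1 OE. The Ctrl libraries had 91.1 and 90.4 CPM in BV+ cells and 99.1 and 105 CPM in BV− cells. Each NRF1 OE library was above both Ctrl libraries of its sort, with ratios of the means of 1.08 in BV+ and 1.20 in BV− cells, which were not tested here. Whether reads from the cDNA of the vector were counted is not given in the sources used here, so the strength of the overexpression at day 5 cannot be read from these counts, and NRF1 OE names the groups as labelled. Between the sorts at NRF1 OE, Nrf1 fell by 0.33 on the log2 scale in BV+ cells (SE 0.10, edgeR adjusted p = 0.043), a call made in 6 of 20 alternative settings.

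With NRF1 OE, many of the listed genes of mesenchyme, of heart and vessel precursors and of BMP targets were called higher in BV+ than in BV− cells, some by more than 2 on the log2 scale, while Prdm1 itself was at a like level in both sorts. Of 16903 genes tested, 1674 (9.9%) were called higher in BV+ cells and 651 (3.85%) lower at an adjusted p below 0.05 (edgeR quasi-likelihood test, Benjamini-Hochberg adjustment over all genes tested). Rises were larger than falls. Among genes called higher, the median log2 fold change was 1.31, with 1058 genes above 1 and 475 above 2, while among genes called lower it was −0.52, with 77 below −1 and 9 below −2. The median over all genes tested was −0.0049. In 2323 of the 2325 genes called, the BV+ and BV− libraries did not overlap. This describes the calls only, since a low p favours groups that do not overlap. The share over all genes tested is not given here. At the threshold used in the study, an unadjusted p below 0.05 with a log2 fold change beyond 0.58 in size, 2486 genes (14.7%) differed, 1932 of them higher and 554 lower.

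The median level of genes called higher was 12 CPM in BV+ and 4.48 CPM in BV− cells. Of them, 425 (25.4%) had a mean under 1 CPM in BV− cells, against 16.7% of all genes tested. This share describes the calls only, since low BV− values favour such a call. Genes called lower had median levels of 40.6 CPM in BV+ and 58.7 CPM in BV− cells. Across 14253 genes, which are not independent replicates, the log2 fold change had a Spearman correlation of −0.27 with GC content and of 0.28 with log transcript length. With offsets that remove each library's trend over both, 1818 genes were called higher and 2677 lower, so that 40.4% of all calls were higher in place of 72%. When replicate 1 of the BV+ NRF1 OE libraries was dropped, 730 genes were called higher and 56 lower. Without replicate 2 of the BV+ libraries 298 genes were called lower, and without replicate 1 or 3 of the BV− NRF1 OE libraries 1260 or 198.

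**Figure D1:**
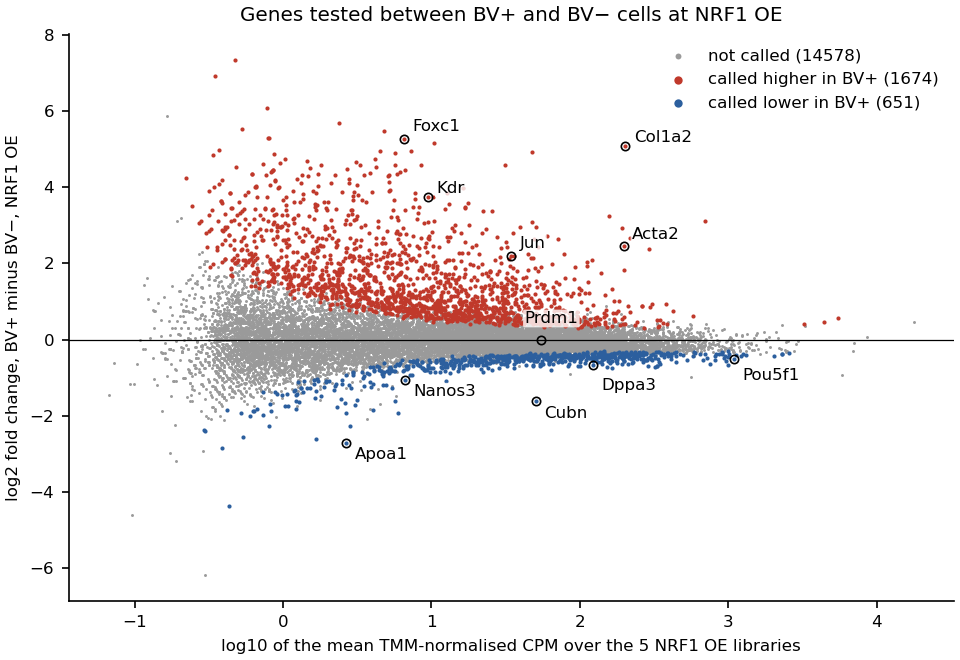
Each point is a gene, with its mean level over the 5 NRF1 OE libraries on the x axis (log10 of TMM-normalised CPM) and its log2 fold change between BV+ and BV− cells on the y axis. The 1674 genes called higher (red) extend far above 2, only 77 of the 651 called lower (blue) lie below −1, and Prdm1 lies at 0.

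The genes behind the reporters were not higher in BV+ cells. Prdm1, a transcriptional repressor needed for PGC specification, had 53.3 and 56.4 CPM in BV+ cells and 62.0, 42.4 and 59.8 CPM in BV− cells. The BV+ values lie within the range of the BV− values, and the log2 fold change was 0.00 ± 0.15 (SE; edgeR adjusted p = 0.998), or −0.23 with the GC and length offsets (edgeR adjusted p = 0.089). At Ctrl, Prdm1 was at 57.5 and 62.8 CPM in BV+ and 58.6 and 57.3 CPM in BV− cells. Transcripts of the mVenus reporter were not analysed here. Dppa3, a maternal-effect factor of early PGCs and naive PSCs, had 96.6 and 86.3 CPM in BV+ cells and 162, 144 and 124 CPM in BV− cells. All BV− libraries were above both BV+ libraries, and Dppa3 fell by 0.65 on the log2 scale in BV+ cells (SE 0.13, edgeR adjusted p = 0.0054).

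Of 17 genes listed as germ cell specification regulators, all tested, 6 were called lower and 3 higher in BV+ cells, with a median log2 fold change of −0.38. With the BV+ and BV− NRF1 OE groups fitted alone, edgeR called 2 lower and 3 higher. The list as a whole thus did not set the BV+ libraries apart as germ cells, and they are called BV+ cells here. The study also compared PGC marker genes between BV+ and BV− cells by real-time RT-PCR. That is another assay, and its values were not examined here. Tfap2c, which acts with Blimp1 in PGCs, had 42.7 and 44.2 CPM in BV+ cells against 60.4, 65.9 and 49.8 CPM in BV− cells and fell by 0.43 on the log2 scale (SE 0.13, edgeR adjusted p = 0.046), a call made in 7 of 20 alternatives. Nanos3, an RNA-binding protein needed for PGC survival, had 4.02 and 4.08 CPM against 8.85, 8.91 and 7.34 CPM. It was lower in each BV+ library than in each BV− library and fell by 1.04 on the log2 scale (SE 0.19, edgeR adjusted p = 0.0035), a call made in 20 of 20 alternatives. The membrane proteins Ifitm1 and Ifitm3, present on early PGCs, fell by 0.58 and 0.48, and Tcl1, a co-activator of the AKT kinase, fell by 0.45.

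The 3 genes of this list that were called higher included both Lin28 genes, which block maturation of let-7 microRNAs. Lin28b had 66.2 and 52.3 CPM in BV+ cells against 21.5, 14.2 and 21.4 CPM in BV− cells, a log2 fold change of 1.63 ± 0.18 (SE; edgeR adjusted p = 1.2e-04) that was called in 20 of 20 alternatives. Lin28a was more abundant, at 459.7 and 404 CPM against 299, 338 and 323 CPM, with a log2 fold change of 0.43 ± 0.10 (SE; edgeR adjusted p = 0.015), and it overlaps Gm13061 on the opposite strand. Fut4, a fucosyltransferase, had 3.92 and 2.72 CPM against 0.482, 0.589 and 0.770 CPM, a log2 fold change of 2.42. All 3 were higher in every BV+ library than in any BV− library at NRF1 OE. Prdm14, another core PGC factor, had a log2 fold change of −0.38 (edgeR adjusted p = 0.094) and the receptor Kit one of −0.35 (edgeR adjusted p = 0.067). Of the rest, Alpl was at −0.35, Dnd1 at −0.48, Cbx7 at −0.29, Sox15 at −0.46 and Smad1 at 0.10, and none of these passed. Without replicate 1 of the BV+ NRF1 OE libraries 2 of the list were called higher and 3 lower, and with the GC and length offsets 3 and 10.

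Genes of later germ cells, many of them silenced by promoter methylation in somatic cells, had 7 called lower and 0 higher of 21 tested, with a median log2 fold change of −0.34. Tex19.1, a germline factor that limits retrotransposons, had 56.5 and 70.2 CPM in BV+ cells and 91.3, 102 and 102 CPM in BV− cells, and fell by 0.64 on the log2 scale (SE 0.12, edgeR adjusted p = 0.0047). Pnldc1, which trims piRNAs, fell by 0.61, and Rpl10l, a ribosomal protein gene of the testis, by 0.54. Dazl and Ddx4, RNA-binding proteins of established germ cells, had log2 fold changes of −0.24 and 0.10 and did not pass. When replicate 1 of the BV+ NRF1 OE libraries was dropped, 0 of the list were called lower, and without replicate 3 of the BV− NRF1 OE libraries 2.

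**Figure D2:**
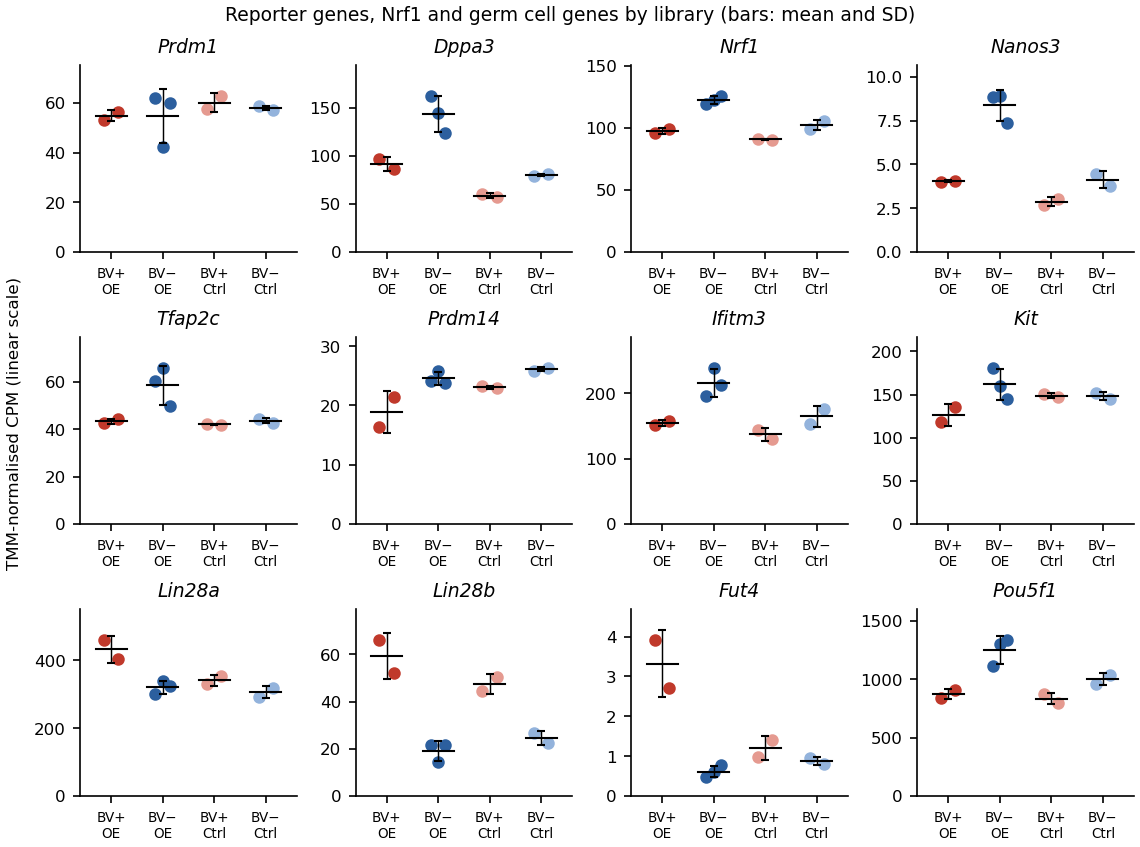
TMM-normalised CPM (linear y axes from 0) of 12 genes in each of the 9 libraries, with dots for libraries, horizontal bars for group means and error bars for the SD. Prdm1 overlaps between the sorts at NRF1 OE, Dppa3, Nanos3 and Pou5f1 are lower in both BV+ NRF1 OE libraries than in all 3 BV− NRF1 OE libraries, and Lin28b and Fut4 are higher.

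Pluripotency genes were abundant in both sorts, and several were lower in BV+ cells. Pou5f1 (Oct4), shared by pluripotent and germ cells, had 841 and 905 CPM in BV+ cells and 1113, 1298 and 1336 CPM in BV− cells, and fell by 0.52 on the log2 scale (SE 0.10, edgeR adjusted p = 0.0071). Per length, its mean was 387 FPKM in BV+ and 544 FPKM in BV− cells, where Prdm1 had 9.79 and 9.60 FPKM. The sort that the study calls somatic therefore held the higher level of this pluripotency marker. Of 9 core pluripotency genes 4 were called lower and 0 higher, with a median of −0.29, among them the chromatin-associated factor Utf1, which fell by 0.70, and Dppa5a, which fell by 0.55. Of 18 naive pluripotency genes 4 were called lower, namely Dppa4, Klf2, Tdh and Esrrb, which fell by 0.53, 0.46, 0.43 and 0.35. The T-box factor Tbx3 was the 1 called higher, with a log2 fold change of 1.15, and the list median was −0.25. Nanog, at a mean of 393 CPM in BV+ and 469.6 CPM in BV− cells, had a log2 fold change of −0.26 and did not pass. Without replicate 1 of the BV+ NRF1 OE libraries 2 of the core and 0 of the naive genes were called lower, and with the GC and length offsets 6 and 11.

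Among formative and primed epiblast genes, 2 of 13 tested were called lower and 1 higher. The transcription factor Otx2, which opposes entry into the germ line, was at 66.5 and 89.2 CPM in BV+ and 99.0, 106 and 109.9 CPM in BV− cells and fell by 0.43 on the log2 scale (edgeR adjusted p = 0.046, called in 9 of 20 alternatives). The Nodal antagonist Lefty1 fell by 0.55, and Sfrp1, a secreted WNT antagonist, rose by 0.62. Fgf5 and Dnmt3b, further markers of this state, had log2 fold changes of −0.04 and −0.21 and did not pass. Dropping BV+ replicate 1 or BV− replicate 3 at NRF1 OE left 0 genes of the list called lower, and the GC and length offsets gave 4. The number called higher was 3 without BV− NRF1 OE replicate 2 and 2 with the offsets.

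The genes most raised in BV+ cells were ranked among called genes with a mean of at least 1 CPM and no overlap between sorts. The top 10 were Adamtsl2, Adamts12, Foxc1, Pcdh7, Col1a2, Tnfaip2, Tnc, Myh7, Cd248 and Hapln1, with log2 fold changes from 4.74 to 5.67. Several make or modify extracellular matrix: Col1a2 is a chain of type I collagen, Tnc is tenascin C, Hapln1 links hyaluronan to proteoglycans and Adamts12 is a matrix metalloprotease. Foxc1 is a forkhead factor of paraxial and cardiac mesoderm, Cd248 a surface protein of pericytes and fibroblasts, and Myh7 the slow cardiac myosin heavy chain. Col1a2 had 602 and 368 CPM in BV+ cells against 17.1, 15.9 and 9.95 CPM in BV− cells, a 33.9-fold difference (log2 fold change 5.08 ± 0.26 SE, edgeR adjusted p = 1.3e-06). Foxc1 had 17.6 and 13.9 CPM against 0.301, 0.442 and 0.474 CPM, a log2 fold change of 5.26 ± 0.26 (SE; edgeR adjusted p = 1.2e-06). The separation of the BV+ from the BV− libraries in these genes was set by the ranking rule and is no further result. The limit on the mean can also be met through the BV+ values alone. Myh7 had 139.6 and 86.2 CPM against 4.70, 3.46 and 3.02 CPM. The BV− values of Adamtsl2 rest on 5, 0 and 0 counts and those of Hapln1 on 3, 0 and 1, so their fitted fold changes depend on the prior count. In 9 of the 10 genes the call was made in all 20 alternatives, and in Adamtsl2 in 19. Myh7, Pcdh7, Tnfaip2 and Tnc overlap an annotated gene on the opposite strand, and whether counting used strand is not given in the sources used here.

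Of 20 mesenchyme and epithelial-mesenchymal transition genes tested, 14 were called higher and 0 lower, with a median log2 fold change of 2.07. Col1a1, the other type I collagen chain, had 80.2 and 66.0 CPM in BV+ cells against 2.65, 3.39 and 3.20 CPM in BV− cells, a log2 fold change of 4.57 ± 0.19 (SE; edgeR adjusted p = 5.3e-07). Collagen III (Col3a1) and periostin (Postn), further matrix proteins, rose by 3.79 and 4.16, and the intermediate filament gene Vim rose by 2.03, with means of 204 CPM in BV+ and 50.2 CPM in BV− cells. The transcriptional repressor Zeb2 had 13.6 and 10.8 CPM against 1.99, 1.99 and 2.25 CPM, a log2 fold change of 2.55, and it overlaps Zeb2os on the opposite strand. N-cadherin (Cdh2) rose by 1.67, while E-cadherin (Cdh1) at −0.34, Twist1 at 0.51 and fibronectin (Fn1) at 0.12 did not pass. Over all alternatives 13 to 16 genes of the list were called higher. The summed level of the list was 2485 to 2929 CPM in BV+ cells and 1631 to 1753 CPM in BV− cells. In bulk RNA, more cells of a type and more RNA per cell cannot be told apart, here and for each list below.

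Cardiac, lateral plate and paraxial mesoderm genes had the highest median of the 30 lists, 2.58, with 11 of 15 tested called higher and 0 lower. Of the 21 listed, Gata5, Tbx5, Foxf1, Meox1, Meox2 and Foxc2 were too low to be tested. In this and every other list a gene could be tested because of its level in a single group. Where that group was BV+ NRF1 OE, this favours rises, so shares and medians describe the tested members only. Beside Foxc1, the heart factor Tbx20 rose by 4.63, the second heart field factor Isl1 by 3.82 and the muscle transcription factor Mef2c by 3.61. Mef2c had 7.93 and 8.22 CPM in BV+ cells against 0.783, 0.516 and 0.652 CPM in BV− cells. Hand1, a factor of lateral plate and extra-embryonic mesoderm, had 4.17 and 1.9 CPM against 0.120, 0.147 and 0.237 CPM, the BV− values resting on 2, 2 and 4 counts. Smooth muscle actin (Acta2) was the most abundant of those named here, at 506 and 269.8 CPM against 62.9, 87.4 and 59.9 CPM, a log2 fold change of 2.47 ± 0.23 (SE; edgeR adjusted p = 3.8e-05). The endoderm and heart factors Gata4 and Gata6, at −0.09 and −0.08, did not pass, nor did the atrial myosin light chain Myl7 at 0.07 or Tcf15, a somite factor, at −0.56.

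Of 20 genes of the primitive streak and nascent mesoderm, the stage before, 13 were tested and 3 were called higher, namely Hand1, Snai1 and Fgf8. Snai1, a repressor of E-cadherin, rose by 1.62, and the ligand Fgf8 by 1.65. Brachyury (T), at a mean of 0.739 CPM in BV+ and 0.173 CPM in BV− cells, had a log2 fold change of 2.07 and did not pass. Mixl1, Mesp1 and Msgn1 were too low to be tested. The list median was 0.45, and 1 gene was called higher without BV+ NRF1 OE replicate 1.

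Blood and endothelial genes were called higher in 13 of 22 tested and lower in 0, with a median of 1.45, and lower in 2 with the GC and length offsets. Kdr (Flk1), the VEGF receptor of vessel and blood precursors, had 25.5 and 17.1 CPM in BV+ cells against 1.75, 1.62 and 1.42 CPM in BV− cells, a log2 fold change of 3.73 ± 0.24 (SE; edgeR adjusted p = 3.5e-06). Cdh5 (VE-cadherin) had 7.47 and 5.28 CPM against 0.542, 0.221 and 0.296 CPM, and the VEGF receptor Flt1 14.2 and 9.85 CPM against 0.903, 1.55 and 1.01 CPM. For each of these the BV+ libraries lay above all BV− libraries. The transcription factors Tal1, Lmo2, Fli1 and Gata2 rose by 2.54, 2.36, 3.67 and 2.16. The vessel and blood factor Etv2 at −0.35, the erythroid factor Klf1 at −0.60 and the embryonic globins Hba-x at 0.20 and Hbb-y at 0.87 did not pass, and Gata1 was too low to be tested. Pecam1, which PSCs also express, was at a mean of 122 CPM in BV+ and 163 CPM in BV− cells and did not pass.

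**Figure D3:**
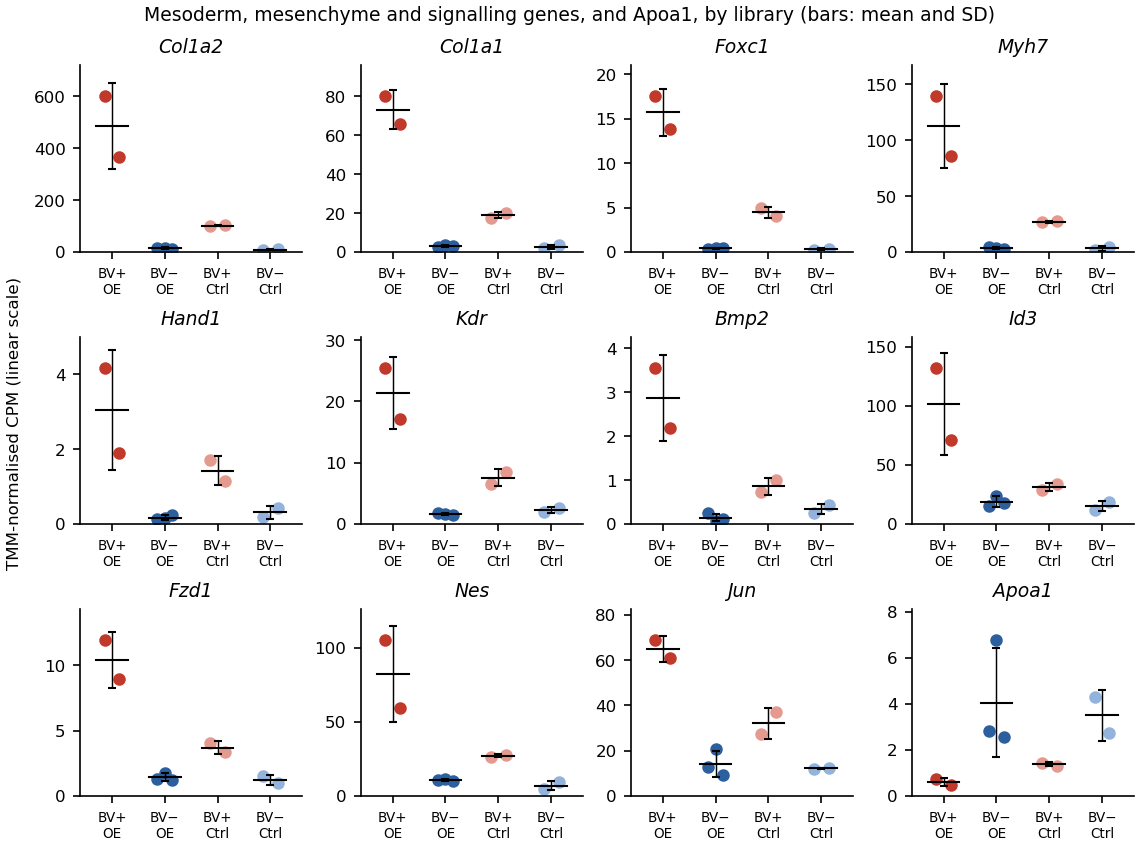
TMM-normalised CPM (linear y axes from 0) of 12 genes in each of the 9 libraries, with dots for libraries, horizontal bars for group means and error bars for the SD. In every panel but that of Apoa1, both BV+ NRF1 OE libraries lie above every other library, and for Apoa1 they lie below every other library.

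Neuroectoderm genes were called higher in 10 of 18 tested and lower in 0, with a median of 1.20. Nestin (Nes), an intermediate filament of neural progenitors that mesenchyme and endothelium also express, had 105 and 59.3 CPM in BV+ cells against 10.6, 11.3 and 9.83 CPM in BV− cells, a log2 fold change of 2.96 ± 0.25 (SE; edgeR adjusted p = 1.9e-05). The forebrain and eye factors Six3 and Lhx2 rose by 1.91 and 1.70, and Sox1, a marker of the neural plate, by 0.93. Pax6 at 0.29, Tubb3 at −0.27 and Sox2 at −0.23 did not pass. When replicate 1 of the BV+ NRF1 OE libraries was dropped, 4 of the list were called higher.

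Over the surface ectoderm and epithelium list 4 of 19 were called higher and 2 lower, with a median of −0.20. Keratin 8 (Krt8) had 181 and 116 CPM in BV+ cells against 23.8, 49.9 and 20.2 CPM in BV− cells and its partner Krt18 had 161 and 105 CPM against 40.2, 65.1 and 26.2 CPM, with log2 fold changes of 2.25 and 1.60. Desmoplakin (Dsp), a protein of cell junctions, rose by 1.36. Esrp1, a splicing factor of epithelia, fell by 0.68, and the tight junction gene Cldn4 by 0.45. Dropping BV+ replicate 1 at NRF1 OE gave 2 higher and 0 lower, and the GC and length offsets 4 and 4.

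Among called genes with a mean of at least 1 CPM and no overlap between sorts, the largest falls included genes of the visceral endoderm. The 10 most lowered under these limits were Apoa1, Aqp8, Ttr, Gm21761, Amn, Eif4a3l1, Alox15, Zscan4a, Eif1ad10 and Spesp1. Their log2 fold changes ran from −2.70 to −1.73, and 2 of the 10, Apoa1 and Gm21761, were called in all 20 alternatives. Others of the 9 genes called below −2 did not meet these limits. Apoa1, an apolipoprotein of yolk sac and liver, had 0.721 and 0.490 CPM in BV+ cells against 2.83, 6.78 and 2.55 CPM in BV− cells, and fell by 2.70 on the log2 scale (SE 0.50, edgeR adjusted p = 0.0045). Cubn, an endocytic receptor of the visceral endoderm, was more abundant, at 20.4 and 24.8 CPM against 50.4, 82.6 and 74.9 CPM, and fell by 1.62 (SE 0.24, edgeR adjusted p = 9.0e-04). Its partner Amn fell by 1.92, the thyroxine carrier Ttr by 2.27, Apob by 1.60 and alpha-fetoprotein (Afp) by 1.56. The highest NRF1 OE values of Apoa1, Ttr, Amn, Aqp8 and Alox15 were all in replicate 2 of the BV− libraries, the library that stood apart. Without it their log2 fold changes were −2.10, −1.71, −1.35, −1.58 and −1.41, in that order, and Alox15 was no longer called. Over all settings Amn was called in 15, Aqp8 in 13 and Alox15 in 13 of 20 alternatives.

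Of 27 visceral and parietal endoderm genes tested, 6 were called lower and 4 higher, with a median of −0.36, and without replicate 2 of the BV− NRF1 OE libraries 6 and 6. Dropping BV+ replicate 1 at NRF1 OE gave 2 lower and 2 higher, and the GC and length offsets 11 and 3. The genes called higher were Serpinh1, Sparc, Lamb1 and Thbd, with log2 fold changes of 1.82, 1.32, 0.39 and 1.83. Serpinh1 is a collagen chaperone, Sparc a matrix glycoprotein, Lamb1 a laminin chain and Thbd a surface anticoagulant, none of them restricted to endoderm. Of 13 definitive endoderm genes 1 was called higher, Krt7, and 1 lower, Cldn4, while Sox17 at −0.45 and Foxa2 at −0.23 did not pass, and neither call was made in this list without replicate 1 of the BV+ NRF1 OE libraries.

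Zscan4a, Gm21761, Eif4a3l1 and Eif1ad10 have near-identical copies in the genome, so that reads could be split among them and their values are uncertain. Zscan4a, a gene of the cleavage-stage embryo that PSCs express in bursts, had 0.773 and 1.14 CPM in BV+ cells against 4.45, 2.58 and 2.67 CPM in BV− cells. Gm21761 had 1.85 and 2.56 CPM against 9.87, 8.62 and 6.69 CPM and fell by 1.93 on the log2 scale. At Ctrl, Zscan4a was at 3.28 and 4.41 CPM in BV+ and 8.19 and 6.30 CPM in BV− cells, so all NRF1 OE libraries lay below the Ctrl libraries of their own sort.

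Some BMP ligands and receptors and most BMP targets and antagonists on the lists were called higher in BV+ cells. Of 17 ligands, receptors and transducers tested, 7 were called higher and 0 lower, with a median of 0.48. The ligand Bmp2 had 3.55 and 2.18 CPM in BV+ cells against 0.241, 0.0737 and 0.118 CPM in BV− cells, a log2 fold change of 4.21 ± 0.48 (SE; edgeR adjusted p = 1.5e-04), with 4, 1 and 2 counts behind the BV− values. Bmp7 had 14.9 and 11.6 CPM against 4.09, 6.78 and 7.46 CPM, a log2 fold change of 1.12, and Bmp4, the ligand that induces PGCs in the embryo, rose by 0.86. Bmp1, which despite its name is a protease that processes procollagen, had 46.1 and 29.4 CPM against 3.91, 5.75 and 4.50 CPM and rose by 3.01. The receptors Bmpr1a and Bmpr2 rose by 0.75 and 1.03 and the transducer Smad5 by 0.62. Smad1 at 0.10, Smad4 at 0.12 and the receptor Acvr1 at 0.34 did not pass. Without replicate 1 of the BV+ NRF1 OE libraries 3 of the list were called higher, and with the GC and length offsets the median was 0.28.

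Of 17 BMP targets and antagonists 13 were called higher and 0 lower, with a median of 1.42. Id3, an inhibitor of basic helix-loop-helix factors and a direct SMAD target, had 132 and 71.2 CPM in BV+ cells against 15.2, 23.9 and 18.0 CPM in BV− cells, a log2 fold change of 2.42 ± 0.26 (SE; edgeR adjusted p = 9.6e-05). Its relatives Id1 and Id2 rose by 1.42 and 1.42, and the homeobox targets Msx1 and Msx2 by 3.16 and 1.78. The secreted antagonist Noggin (Nog) had 4.07 and 3.43 CPM against 0.421, 0.295 and 0.237 CPM, and the antagonist Gremlin (Grem1) was called higher as well. The inhibitory Smad7 at −0.04 and Id4 at 0.29 did not pass. Some members, such as Hand1 and Gata2, are also on the mesoderm or blood lists.

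WNT pathway genes were called higher in 10 of 32 tested and lower in 0, with a median of 0.54. The frizzled receptors Fzd1, Fzd2, Fzd3, Fzd6, Fzd8 and Fzd10 were among those called, with log2 fold changes of 2.86, 1.60, 1.17, 0.59, 1.26 and 0.51. Fzd1 had 12 and 8.92 CPM in BV+ cells against 1.32, 1.77 and 1.24 CPM in BV− cells (SE 0.25, edgeR adjusted p = 2.3e-05). The secreted antagonists Frzb and Dkk1 rose by 3.92 and 2.49, and the agonist Rspo3 by 3.74. Axin2 and Lef1, target genes often read as measures of pathway activity, had log2 fold changes of 0.21 and 0.13 and did not pass, nor did Fzd7 at −0.21 and Fzd5 at −0.19. When replicate 1 of the BV+ NRF1 OE libraries was dropped, 5 of the list were called higher, and the GC and length offsets gave 12 higher and 3 lower with a median of 0.30.

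Notch pathway genes had 6 of 17 called higher and 0 lower, with a median of 0.27. Notch4, an endothelial receptor, had 18.2 and 13.4 CPM in BV+ cells against 5.90, 6.63 and 5.80 CPM in BV− cells, a log2 fold change of 1.37 ± 0.18 (SE; edgeR adjusted p = 3.8e-04). Notch3 and Notch2 rose by 0.94 and 0.53, while Notch1 at −0.02 did not pass. The effectors Hey2 and Heyl rose by 3.69 and 2.97, and Hes1 at 0.32 and Hey1 at 0.40 did not pass. The GC and length offsets gave 7 higher and 3 lower with a median of 0.13.

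Among FGF pathway and ERK feedback genes 8 of 21 were called higher and 2 lower, with a median of −0.04, and with the GC and length offsets 7 and 6. The ligand Fgf10 rose by 3.25, and the feedback inhibitors Spred1 and Il17rd by 1.04 and 0.74, while the ERK-responsive factors Etv4 and Etv5 fell by 0.66 and 0.43. Without replicate 1 of the BV+ NRF1 OE libraries 3 were called higher and 0 lower. Among Nodal pathway genes the transducer Smad3 rose by 0.53, and the ligand Gdf3, the antagonist Lefty1 and the transcription factor Foxh1 fell by 0.55, 0.55 and 0.46, and without BV+ NRF1 OE replicate 1 0 of that list were called lower.

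AP-1 and immediate early genes, which respond within minutes to growth factors, stress and cell dissociation, were called higher in 9 of 20 and lower in 1, with a median of 0.64. Jun had 68.9 and 60.7 CPM in BV+ cells against 12.6, 20.6 and 9.42 CPM in BV− cells, a log2 fold change of 2.20 ± 0.25 (SE; edgeR adjusted p = 1.5e-04), and Junb had 64.9 and 43.0 CPM against 10.8, 18.9 and 10.5 CPM. Their AP-1 partners Fos, Fosb and Fosl2 rose by 2.18, 2.31 and 2.02, and Zfp36, which destabilises cytokine mRNAs, by 1.73. The immediate early genes Dusp1 at 0.21, Ier2 at 0.04, Nr4a1 at 0.07 and Myc at −0.01 did not pass, and Jund fell by 0.45, a call made in 7 of 20 alternatives. The part of dissociation and sorting in these levels was not tested. When replicate 1 of the BV+ NRF1 OE libraries was dropped, 4 genes of the list were called higher. Jun, Junb, Jund and Zfp36 overlap genes on the opposite strand.

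**Figure D4:**
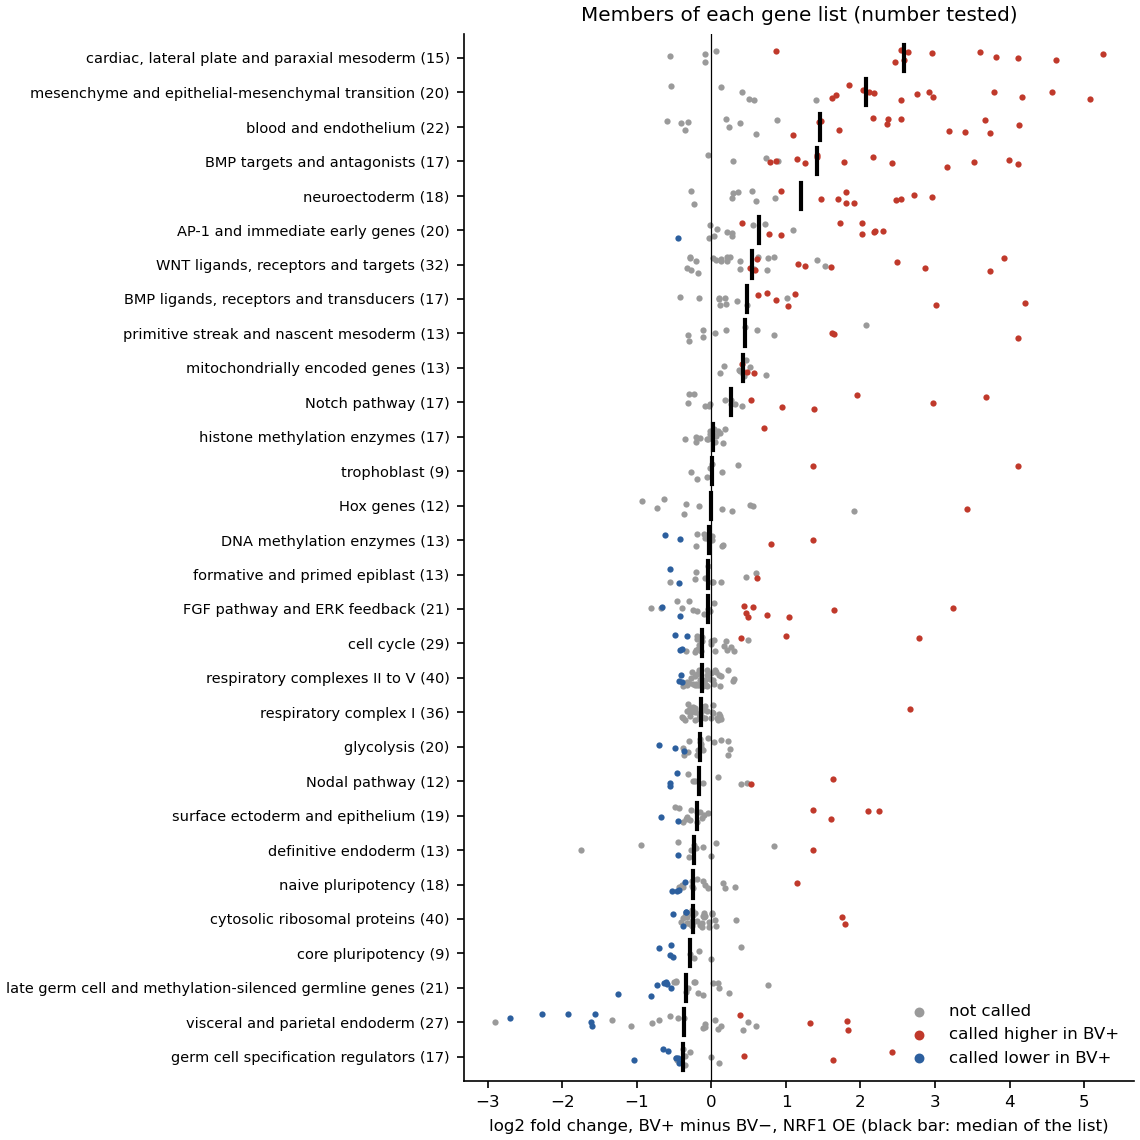
Each dot is a gene of a list, placed by its log2 fold change between BV+ and BV− cells at NRF1 OE (x axis) and coloured by its call, with lists ordered by their median (black bars) and the number tested in parentheses. Medians run from −0.38 for germ cell specification regulators to 2.58 for cardiac, lateral plate and paraxial mesoderm.

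The same contrast in the Ctrl libraries, which shares no library with that at NRF1 OE, had fewer calls in the fit of all 9 libraries, mostly with the same sign. Of the 16903 genes, 186 (1.1%) were called higher in BV+ Ctrl cells and 4 (0.0237%) lower, with 1314 at an unadjusted p below 0.05. With the groups of each contrast fitted alone, edgeR called 717 higher and 173 lower at Ctrl against 1182 and 78 at NRF1 OE, so that the lower calls were then more numerous at Ctrl. Of the 1674 genes called higher at NRF1 OE, 1628 (97.3%) had a positive log2 fold change at Ctrl and 185 were called at both. Of the 651 called lower at NRF1 OE, 615 (94.5%) had a negative one at Ctrl and 3 were called at both. Across all genes tested the log2 fold changes at NRF1 OE and Ctrl had a Pearson correlation of 0.688 and a Spearman correlation of 0.549, given as a description across genes of 1 fit. The 186 genes called higher at Ctrl had a median log2 fold change of 1.95 there and of 2.88 at NRF1 OE, and 170 of them were larger at NRF1 OE. Col1a2 was at 99.8 and 102 CPM in BV+ Ctrl and 7.25 and 10.9 CPM in BV− Ctrl cells, a log2 fold change of 3.46 against 5.08 at NRF1 OE.

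Whether the contrast differed between NRF1 OE and Ctrl was tested as an interaction in the same fit. edgeR called 0 genes, with 932 at an unadjusted p below 0.05, and DESeq2 called 29. Elk3, an ETS-family transcription factor, had the smallest p, with a difference of 1.42 ± 0.20 on the log2 scale (SE; unadjusted p = 1.8e-05, edgeR adjusted p = 0.309). Col1a1 differed by 1.77 ± 0.31 and Kdr by 1.98 ± 0.37 (SE; edgeR adjusted p = 0.455 for both). Fut4, at 0.983 and 1.42 CPM in BV+ Ctrl and 0.945 and 0.801 CPM in BV− Ctrl cells, had a log2 fold change of 0.48 at Ctrl against 2.42 at NRF1 OE (edgeR adjusted p of the difference = 0.571). Lin28b had 0.95 at Ctrl against 1.63, and Apoa1 −1.34 against −2.70. Without replicate 2 of the BV− NRF1 OE libraries edgeR called 33 genes for the difference.

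**Figure D5:**
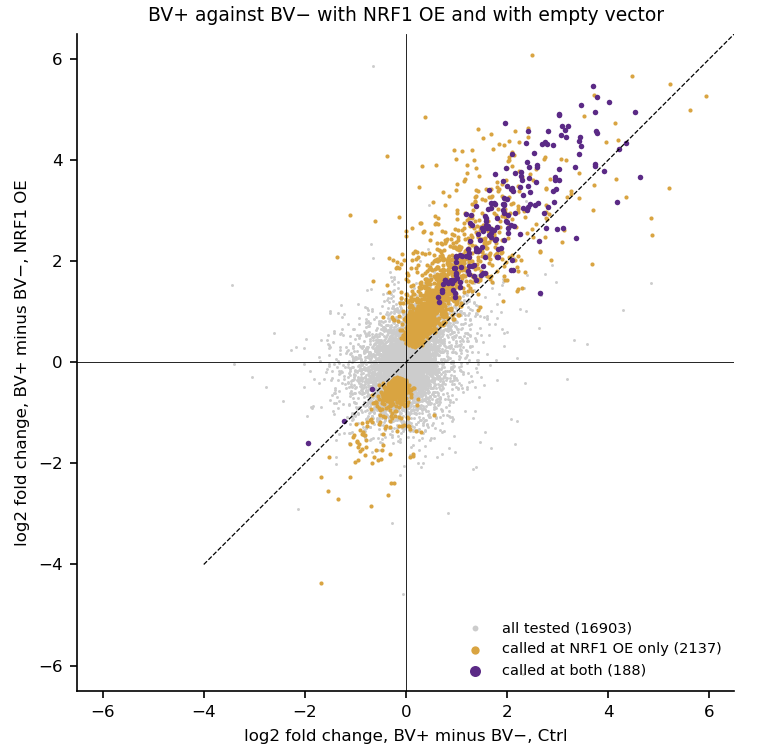
Each point is a gene, with its log2 fold change between BV+ and BV− cells at Ctrl on the x axis and at NRF1 OE on the y axis. The dashed line marks equal values, 3 of 16903 genes lie outside the axes, the 188 genes called at both (purple) lie mostly above the dashed line on the positive side, and 2137 were called at NRF1 OE alone (orange).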

How the data were processed

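All 9 libraries were deposited with raw counts and FPKM per gene. According to the methods and processing notes, the authors trimmed reads with Cutadapt 1.9.1 and FastQC 0.10.1, dropping reads under 75 bases, mapped them to GRCm39 (Ensembl 107) with HISAT2 2.0.1 and counted them per gene with HTSeq 0.6.1. FPKM as deposited by the authors was used for levels per length and counts for all tests. Genes were filtered with filterByExpr and scaled with TMM factors, and all 9 libraries were fitted together as 4 groups with the quasi-likelihood test of edgeR 4.0.16 (R 4.3.3, limma 3.58.1). The alternatives included DESeq2 1.42.0, other scalings and filters, GC and length offsets, a replicate block and each library left out. The biological coefficient of variation was 0.129. The fit was tested on simulated data.

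Genes named were the reporter genes and Nrf1, the 10 most raised and 10 most lowered called genes with a mean of at least 1 CPM and no overlap between sorts, up to 3 called members in each direction of each list by p, and all germ cell specification regulators. A gene that this rule names is not reported here. Other list members, and Elk3, were named after their values were seen. The members and lists were chosen with earlier results of these data known. Counting error sets the precision of genes with few counts. Other named genes, among them Pou5f1, Krt8, Cubn, Otx2, Six3, Fgf10, Tbx3 and Esrp1, also overlap an annotated gene on the opposite strand. Whether this changed their counts was not tested.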

Additional observations from a re-analysis of the deposited data

How the results depend on the processing

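Of 126 named genes 118 were called, all 118 kept their direction in every alternative run and 59 were called in every one. The reversals were all of Prdm1, a value near 0. It was −5.57e-04 with DESeq2 size factors, −0.030 with upper-quartile factors, −4.85e-04 and −0.00201 with DESeq2 on all libraries and on the pair of groups alone, −0.00201 without the filter, −0.23 with GC and length offsets, −0.18 with offsets and block, and −0.23 to 0.097 over all alternatives, with −0.042 and −0.12 without replicate 2 of BV+ or BV− NRF1 OE and −8.42e-04 and −0.0017 without replicate 1 of BV+ or BV− Ctrl. The counts of calls that moved follow, and the cause was not tested. With the groups compared alone, 78 genes were lower at NRF1 OE by edgeR and 168 by DESeq2, and at Ctrl 717 and 383 were higher and 173 and 64 lower. Without the filter 493 were higher and 36 lower at Ctrl, and 108 were called for the difference. DESeq2 on all libraries called 300 higher at Ctrl and 29 for the difference. GC and length offsets gave 2677 lower at NRF1 OE and 14 lower at Ctrl. Leaving out single libraries gave 730 to 1994 higher and 56 to 1260 lower at NRF1 OE, 31 to 469 higher and 0 to 15 lower at Ctrl, and 0 to 33 for the difference.

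Same-numbered libraries did not pair at NRF1 OE: their deviations from the group means correlated at −0.138 for replicate 1 and −0.295 for replicate 2. With 2 BV+ libraries the BV+ deviations mirror each other, so these values are not independent. Pairing at Ctrl was not examined. A replicate block, in which replicate 3 of BV− NRF1 OE has no partner, gave 969 higher and 95 lower at NRF1 OE and 121 higher and 0 lower at Ctrl, and offsets with the block gave 1430 lower at NRF1 OE and 1 for the difference. Genes with few counts in BV− cells limit the precision of the largest fold changes.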

Other observations

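Of all genes tested 9.9% were called higher and 3.85% lower, and the lists here are to be read against these shares. Cell cycle genes had 3 called higher and 4 lower of 29 tested, with a median log2 fold change of −0.13, and 3 and 11 with the GC and length offsets. The CDK inhibitor Cdkn1c (p57) had 57.3 and 33.0 CPM in BV+ cells against 5.96, 6.78 and 6.87 CPM in BV− cells, a log2 fold change of 2.79 (edgeR adjusted p = 8.9e-06), and cyclin D2 (Ccnd2) rose by 1.00. The replication licensing genes Mcm5 and Mcm2 and cyclin E1 (Ccne1) fell by 0.49, 0.39 and 0.42. Without replicate 1 of the BV+ NRF1 OE libraries 1 was called higher and 0 lower. Among DNA methylation enzymes, the demethylation genes Tet3 and Tdg rose by 0.80 and 1.36, and Dnmt3l, a cofactor of the de novo methyltransferases, and the corepressor Trim28 fell by 0.62 and 0.42, while without replicate 1 of the BV+ NRF1 OE libraries 0 genes of that list were called lower, and with the GC and length offsets 5. Tdg and Dnmt3l overlap genes on the opposite strand. Of 17 histone methylation enzymes, the demethylase Kdm6b was the 1 called, with a log2 fold change of 0.70, while the GC and length offsets gave 5 lower. Of 39 Hox genes 12 were tested and Hoxb3 was the 1 called, with 1.44 and 0.980 CPM against 0, 0.147 and 0.178 CPM. Neither the Hox nor the histone methylation list had a call without BV+ NRF1 OE replicate 1. Of 9 trophoblast genes 2 were called higher, Krt7 and Hand1, while the placental genes Prl3d1, Prl2c2 and Tpbpa had 0 counts in all NRF1 OE libraries, and 1 trophoblast gene was called higher without replicate 1 of the BV+ NRF1 OE libraries.

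Respiratory chain genes are a class known for NRF1 targets. Of 36 subunits of respiratory complex I 1 was called higher and 0 lower, with a median of −0.14, and of 40 in complexes II to V 0 were higher and 3 lower, with a median of −0.13. The count for complexes II to V was 0 lower without BV+ replicate 1, BV− replicate 2 or BV− replicate 3 at NRF1 OE, and 2 higher and 8 lower with the GC and length offsets, which gave 4 lower for complex I. The complex I gene called was Ndufs5, at 10.5 and 6.64 CPM against 1.38, 1.62 and 1.07 CPM, and its reads may be shared with near-identical copies. Of 13 mitochondrially encoded genes 3 were called higher, mt-Cytb, mt-Nd1 and mt-Nd2, with a median of 0.43. That count was 0 without BV+ replicate 1 or BV− replicate 3 at NRF1 OE and 8 without replicate 2 of the BV− NRF1 OE libraries. Of 20 glycolysis genes 3 were lower, namely Eno1b, Pfkp and Pgam1, which fell by 0.71, 0.49 and 0.36, calls made in 20, 9 and 5 of 20 alternatives. That count was 1 without replicate 1 of the BV+ NRF1 OE libraries or without replicate 3 of the BV− ones, and 8 with the GC and length offsets. Of 40 cytosolic ribosomal protein genes 2 were higher and 4 lower, with a median of −0.25, and without BV− replicate 2 or 3 at NRF1 OE 1 was lower, against 8 with the GC and length offsets. Rpl3 and Rpl30, called higher, and Rpl13 and Rpl6, called lower, overlap annotated genes on the same strand, and their values are uncertain.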
